A study of Homo sapiens with 8 samples.

Results

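Endogenous HoxC5 occupied 2555 sites on chromosomes 1-22 and X of PC-3 cells, and 1821 of them (71.3%) shared at least 1 bp with a peak of overexpressed Pbx4. The sites were the merged intervals of the peak lists of 2 ChIP-Seq libraries of unmodified PC-3 cells, an established human prostate cancer cell line, and the remaining 734 sites had no Pbx4 peak. The Pbx4 list came from 1 library of PC-3 cells that overexpressed Pbx4, delivered by lentivirus and carrying a Flag tag according to the methods of the study, and was precipitated with an antibody against PBX4. HoxC5 ChIP from 1 library of PC-3 cells overexpressing HoxC5 served as a further readout. The series holds 8 samples, and its 4 input libraries were not used here. Pbx4 binding in unmodified cells was not measured, so each overlap joins HoxC5 binding in one cell population with Pbx4 binding in another, and an overlap that needs the overexpression cannot be told apart from one that does not.

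Hox proteins are homeodomain transcription factors that pattern the body axis and, alone, recognise short AT-rich words. Pbx proteins belong to the TALE class of homeodomain factors and bind DNA together with Hox proteins, which lengthens the recognised word and makes it more selective. Both kinds of factor are found at promoters and at distal enhancers, where they meet factors of other families such as AP-1, the Fos and Jun heterodimer.

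Some of the strongest sites show how the DNA differed between sites with and without a Pbx4 peak. The following 101 bp windows are centred on the HoxC5 summit of 3 sites with and 2 sites without a Pbx4 peak, taken from the highest ranks by the number of HoxC5 libraries with a peak and then by the q-value, and named after the nearest protein-coding gene. They are given 5′ to 3′ on the plus strand of GRCh37 (hg19), and capitals mark matches on either strand to the words TGACTCA (AP-1), CAGGTG (an E-box) and CCCCGCCC (a GC box). The windows with a Pbx4 peak lie at chr16:2438978-2439078, chr10:33553310-33553410 and chr13:99068801-99068901.
CCNF: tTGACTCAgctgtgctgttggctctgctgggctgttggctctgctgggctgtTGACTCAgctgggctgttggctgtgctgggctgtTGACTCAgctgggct
NRP1: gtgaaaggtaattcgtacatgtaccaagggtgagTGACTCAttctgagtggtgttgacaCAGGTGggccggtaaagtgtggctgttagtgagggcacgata
FARP1: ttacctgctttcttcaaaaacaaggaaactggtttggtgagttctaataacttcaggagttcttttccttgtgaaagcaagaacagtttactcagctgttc
The CCNF window is made of a short repeated unit and holds the AP-1 word 3 times. The NRP1 window holds the AP-1 word and the E-box, and the FARP1 window holds none of the words searched. The windows without a Pbx4 peak lie at chr7:43622560-43622660 and chr20:62273220-62273320.
STK17A: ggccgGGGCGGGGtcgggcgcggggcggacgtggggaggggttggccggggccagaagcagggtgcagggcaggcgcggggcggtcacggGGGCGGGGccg
STMN3: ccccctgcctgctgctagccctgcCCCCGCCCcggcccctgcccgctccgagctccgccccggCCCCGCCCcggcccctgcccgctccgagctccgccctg
Both windows without Pbx4 hold the GC box, have a G+C content of 85.1% and contain 14 and 11 CpG, whereas the windows with Pbx4 have 37.6% to 60.4% G+C and 0 to 3 CpG. The STMN3 window, like that of CCNF, is repetitive, and no filter for regions prone to false peaks was applied. The printed pair is extreme among sites without Pbx4. The windows of SEPTIN9 and DAGLB, not printed, had 81.2% and 79.2% G+C, and the site nearest to RAB19 had 45.5% and 0 CpG. Over all sites the median G+C was 61.4% without Pbx4 and 48.5% with it.

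The share of sites with a Pbx4 peak was set against lists and background of the same build. Pbx4 peaks covered 1.85% of the bases of these chromosomes, and 67.7% of the 67169 peaks of overexpressed HoxC5 overlapped one. The 95% exact interval of the endogenous share was 69.5% to 73.0%. Both endogenous libraries gave a high share, 1788 of 2520 peaks (71.0%) in replicate 1 and 138 of 170 peaks (81.2%, 74.5% to 86.8%) in replicate 2. Among the 135 sites called in both libraries, 106 (78.5%) had a Pbx4 peak, and among the 35 called in replicate 2 alone 33 did. Replicate 2 thus added few sites, and the short length of its list was not tested for a cause. All intervals cover counting error only. No p-value is given because sites within a library are not replicates and Pbx4 had 1 library.

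Pbx4 was found far less often at HoxC5 sites in promoters than elsewhere. Within 1 kb of the TSS of a protein-coding transcript, 224 of 551 sites (40.7%, 36.5% to 44.9%) had a Pbx4 peak. In introns it was 733 of 898 sites (81.6%), in exons 56 of 73 (76.7%), in genes of other types 263 of 333 (79.0%), and between genes 545 of 700 (77.9%). By distance from the TSS, the share was 37.6% within 100 bp and 43.5% from 100 to 1000 bp. Further out it was 79.6% from 1 to 5 kb, 78.8% from 5 to 50 kb and 82.0% from 50 to 500 kb. The classes were cut at 1 kb, so the exact position of the change was not located. The 51 sites beyond 500 kb had 62.7%, with a wide interval of 48.1% to 75.9%.

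Sites without a Pbx4 peak were accordingly concentrated at promoters. Promoter summits made up 44.6% of them (40.9% to 48.2%) and 12.3% of the sites with Pbx4 (10.8% to 13.9%), a difference of -32.2 percentage points (Newcombe 95% interval -36.1 to -28.4). Introns differed the other way by 17.8 points (13.9 to 21.4) and intergenic sequence by 8.81 points (5.09 to 12.3). The median distance to the nearest TSS was 27.3 kb for sites with Pbx4 and 4.07 kb for sites without. For comparison, 6.32% of all Pbx4 peaks and 20.6% of all overexpressed HoxC5 peaks lay in promoters. The promoter shares held in each library on its own, 12.2% with against 44.5% without in replicate 1 and 14.5% (20 of 138) against 16 of 32 peaks in replicate 2.

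**Figure D1:**
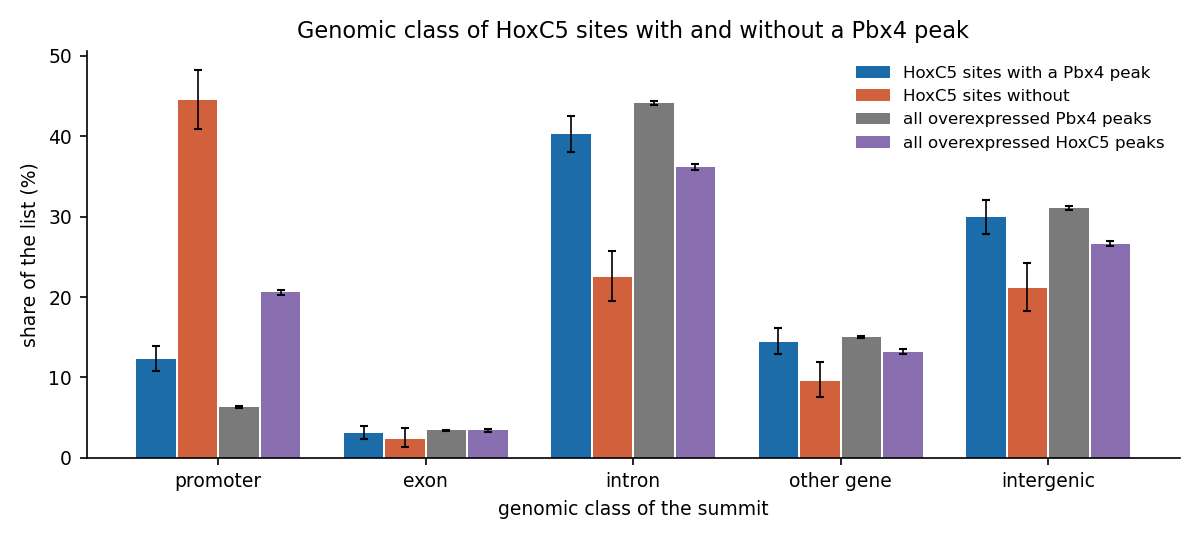
Genomic class of the summit (x axis) against the share of each list in percent (y axis), with exact 95% intervals, for HoxC5 sites with a Pbx4 peak (n = 1821), HoxC5 sites without (n = 734), all Pbx4 peaks (n = 153551) and all overexpressed HoxC5 peaks (n = 67169). The sites without Pbx4 stand out at promoters with 44.6%, against 12.3% of the sites with Pbx4.

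CpG content separated the sites further, inside promoters as well as outside. CpG dinucleotides are dense in the CpG islands that cover most housekeeping promoters. Of 110 promoter sites with at most 4 CpG in the 101 bp around the summit, 78 (70.9%, 61.5% to 79.2%) had a Pbx4 peak. Of 303 promoter sites with 10 or more CpG, 84 did (27.7%, 22.8% to 33.1%). Outside promoters the share was 82.2% (1510 of 1838) at up to 4 CpG and 30.5% (18 of 59, 19.2% to 43.9%) at 10 or more.

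Within a CpG class, promoter and other sites were closer to each other than over all sites. The promoter share of Pbx4 was 39.0 points lower over all sites (43.4 to 34.5 lower), but the difference was -8.04 points (-21.2 to 2.10) at 1 or 2 CpG and -2.79 points (-16.3 to 8.76) at 10 or more. At 3 or 4 CpG it was -14.3 points (-29.9 to -1.03) and at 5 to 9 CpG -19.6 points (-31.2 to -6.98), so a promoter difference remained in those classes. Restricted to the 1948 sites with up to 4 CpG, promoters made up 3.98 points less of the sites with Pbx4 than of those without. Only 110 of these sites were in promoters, so this difference could not be large. The Pbx4 share among them was 70.9% at promoters and 82.2% elsewhere.

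The same order was present in the overexpressed HoxC5 list, which was set against the same Pbx4 peaks but comes from other cells. Its overlap with Pbx4 went from 81.2% at 0 CpG (15037 of 18528 peaks) through 39.4% at 5 to 9 CpG to 19.8% at 10 or more (1165 of 5897). Within CpG classes of that list, the promoter share was -9.63 points (-11.9 to -7.39) from the share elsewhere at 1 or 2 CpG, -19.3 points (-21.9 to -16.8) at 3 or 4, -9.79 points (-12.1 to -7.49) at 5 to 9 and -2.72 points (-5.74 to 0.09) at 10 or more, against -38.0 points over all its peaks. Whether base composition acted on the Pbx4 ChIP itself or on its peak calling was not tested.

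**Figure D2:**
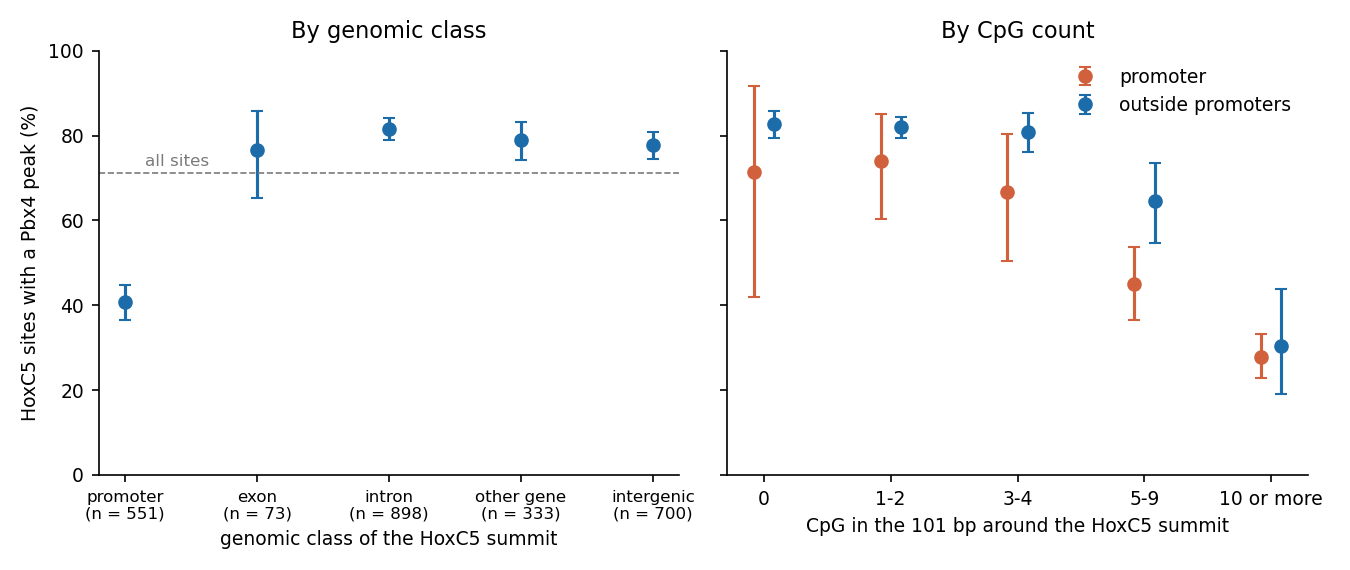
Share of endogenous HoxC5 sites with a Pbx4 peak in percent (y axis), with exact 95% intervals, by genomic class (left, dashed line: all 2555 sites) and by the number of CpG in 101 bp around the summit (right), for promoter sites and sites outside promoters. The share is 40.7% at promoters and 76.7% to 81.6% in the other classes, and at 10 or more CpG it is 27.7% in promoters and 30.5% outside.

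The relation of Pbx4 overlap to the strength of the HoxC5 peak depended on the measure of strength. When all sites were ranked by their -log10 q and cut into 5 groups of like size, 72.5% of the non-promoter sites of the weakest group and 89.3% of those of the strongest had a Pbx4 peak. The promoter sites ranged from 36.4% to 45.4% over the same groups, without an order. Ranked by fold enrichment instead, the non-promoter shares were 85.2%, 79.0%, 77.4%, 73.9% and 83.5% from the weakest to the strongest group, and the promoter shares 47.3%, 42.1%, 43.6%, 30.7% and 36.9%, so the increase outside promoters was not seen. The median -log10 q was 5.25 with Pbx4 and 4.21 without, while the median fold enrichment over the local background was nearly equal, 4.97 and 5.08. In replicate 2 alone the fold enrichment was lower with Pbx4, 5.99 against 7.51. Among the 1821 sites with both factors, the HoxC5 and the Pbx4 fold enrichment had a Spearman correlation of 0.05 across sites, which are not independent replicates.

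From the side of Pbx4, the sites took up its stronger peaks. The 1814 Pbx4 peaks at a HoxC5 site were 1.18% of the list. Their median fold enrichment was 8.95 and their median width 497 bp, against 6.34 and 307 bp for the other Pbx4 peaks. When the Pbx4 list was cut into 10 groups by -log10 q, 0.436% of the lowest group lay at a HoxC5 site (0.338% to 0.554%), and 4.81% of the highest did (4.47% to 5.16%). Wider peaks also have more room to overlap. At promoter sites the Pbx4 peaks were weaker, with a median fold enrichment of 5.25 against 9.27 in introns and 9.55 between genes.

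The summits of the paired peaks lay close together, in part by construction. Only overlapping peaks were paired, and the nearest Pbx4 summit was taken. The distance, and whether a summit fell inside the peak, therefore depended on the widths. The median width was 203 bp for these HoxC5 sites and 497 bp for the Pbx4 peaks at a HoxC5 site. No distance expected from overlap alone was computed. The median distance was 60 bp (quartiles 26 and 119 bp) over the 1821 sites, 43.6% of the pairs were within 50 bp (41.3% to 45.9%) and 88.9% within 200 bp. The HoxC5 summit fell inside the Pbx4 peak at 1728 sites (94.9%), and 1366 sites lay wholly inside it. The largest distance was 1536 bp. At promoters the pairs were less tightly placed, with a median of 77.5 bp and 36.2% within 50 bp, while introns had 56 bp and 46.0%. The distance followed the width of the Pbx4 peak, with a median of 50 bp for peaks under 500 bp, 67 bp from 500 bp to 1 kb and 106 bp for peaks of 1 kb or more.

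Few sites lay at the border between the groups. On the side with Pbx4, 7 sites overlapped their peak by 10 bp or less, the least by 2 bp, and 30 by 50 bp or less. Of the 734 sites without one, 22 had a Pbx4 peak within 100 bp and 173 (23.6%) within 1 kb, and the median gap was 4.35 kb. Promoter sites without an overlap were nearer to a Pbx4 peak than the others, at a median of 2.45 kb against 5.62 kb, and 31.8% (26.8% to 37.2%) against 17.0% (13.4% to 21.0%) had one within 1 kb. Counted by gene, 348 of 535 protein-coding genes with a HoxC5 summit in the promoter (65.0%, 60.8% to 69.1%) had a Pbx4 peak within 1 kb of a TSS, compared with 38.7% of all 19748 protein-coding genes.

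Overexpressed HoxC5 bound most sites that carried Pbx4 and a smaller share of the others. Of the sites with Pbx4, 87.1% (85.5% to 88.7%) overlapped a peak of overexpressed HoxC5, against 50.4% (46.7% to 54.1%) of the sites without, a difference of 36.7 points (32.8 to 40.6). At promoters the shares were 91.5% and 79.2%. Outside promoters they were 86.5% and 27.3%, and 296 of the 407 non-promoter sites without Pbx4 had neither peak. Those 296 sites had a median of 1 CpG, and 3.04% held the AP-1 word. Their median fold enrichment was 5.19, beside 5.001 over all sites, but their median -log10 q was lower, 3.96 against 4.80. Their median width was 166 bp, against 198 bp over all sites. Of them, 8 (2.70%) were called in both endogenous libraries, compared with 5.28% of all sites. The overexpressed HoxC5 list ends at a q-value of 0.00997, a stricter limit than that of the endogenous lists (0.0398 and 0.0499) and of the Pbx4 list (0.0490).

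**Figure D3:**
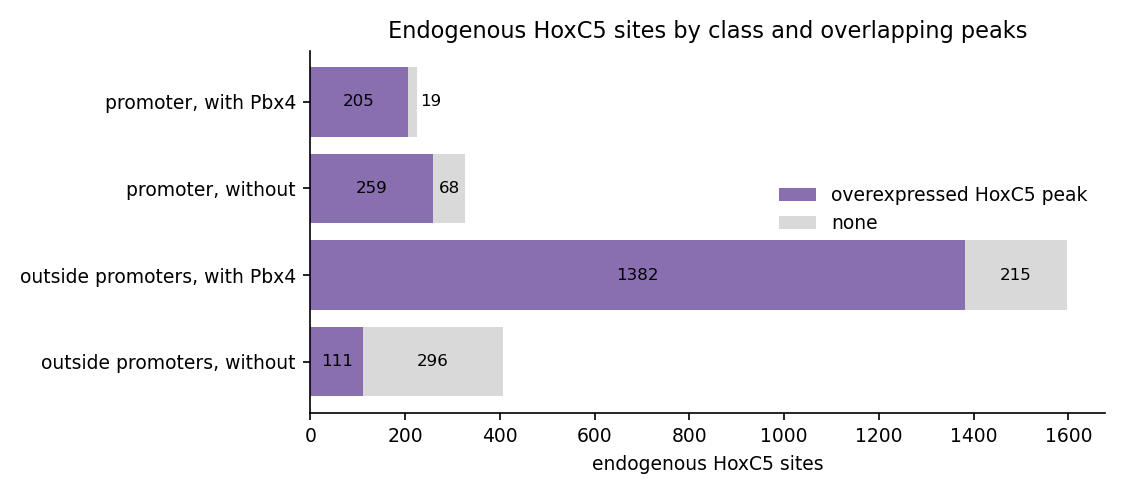
Number of endogenous HoxC5 sites (x axis) by promoter class and Pbx4 peak (rows), split by whether a peak of overexpressed HoxC5 overlapped the site. The row of sites outside promoters without Pbx4 is the one in which most sites, 296 of 407, had no overexpressed HoxC5 peak.

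The largest difference between the groups among the 14 words searched was that of the AP-1 word. The AP-1 word TGACTCA lay within 50 bp of the HoxC5 summit at 386 of 1821 sites with Pbx4 (21.2%, 19.3% to 23.1%) and at 23 of 734 without (3.13%, 1.997% to 4.66%), a difference of 18.1 points (15.7 to 20.3). Windows of the same length 1 kb away held it in 2.20% and 1.23%. Outside promoters the shares were 23.2% and 4.42%. In replicate 2 alone they were 15.9% (22 of 138) and 6.25% (2 of 32), with overlapping intervals. Read the other way, 94.4% of the 409 sites with the AP-1 word had a Pbx4 peak.

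The forkhead word GTAAACA followed the same order, with 7.91% (144 sites) and 1.77% (13 sites) against 1.48% and 1.77% in the flanking windows. All 23 sites that held both the AP-1 and the forkhead word had a Pbx4 peak (85.2% to 100%), as did 90.3% of the 134 with the forkhead word alone and 65.3% of the 2012 with neither. Smaller differences were found for the RUNX word TGTGGT (12.4% and 5.45%), the E-box CAGGTG (20.0% and 13.1%) and the TEAD word GGAATG (9.88% and 5.18%). Outside promoters they were 5.23 points (1.75 to 8.15) for RUNX, 3.33 points (0.09 to 5.98) for TEAD and 3.97 points for the E-box, whose interval covered 0 (-0.45 to 7.91).

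The GC box CCCCGCCC and the ETS word CCGGAAG, both common in promoters, were more frequent without Pbx4, at 14.3% against 2.69% and 5.18% against 1.87%. Outside promoters the GC box still differed by -4.47 points (-7.13 to -2.56). The ETS word did not keep its direction there, at 0.45 points with an interval that covered 0 (-1.02 to 1.27). CCAAT stood at 12.5% in both groups.

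The composite Hox-Pbx words TGATTGAT, TGATTAAT and TGATTTAT were rare at the summits. They were found at 5, 6 and 10 of the 1821 sites with Pbx4 and at 1, 2 and 0 of the 734 without, and the flanking windows of the sites with Pbx4 held them 3, 7 and 8 times. The count of 0 allows a share of up to 0.501% (exact upper limit). The Hox word TAATTA was found at 1.70% of summits with Pbx4 and 0.54% without, a difference of 1.16 points (0.17 to 1.94), and at both it was less frequent than in the flanks (3.46% and 3.13%). The Pbx-Meis word TGACAG stood at 6.53% and 3.95%, a difference of 2.58 points (0.62 to 4.29), with flanks of 5.82% and 6.81%. Outside promoters the intervals of both differences covered 0, at 0.96 points (-0.66 to 1.96) and 0.87 points (-2.09 to 3.19). A missing word says only that these letters are not in the window.

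The strongest sites of each kind showed the same contrast. The first site with Pbx4 lay 40.4 kb upstream of CCNF, which encodes the F-box protein cyclin F, with a HoxC5 fold enrichment of 39.8 in replicate 1, 12.04 in replicate 2 and 7.45 in the overexpressing cells. The second lay 728 bp upstream of NRP1, encoding neuropilin-1, a co-receptor for semaphorins and VEGF, with fold enrichments of 7.76, 8.01 and 8.41 and a Pbx4 summit 12 bp away. The NRP1 site was even across the 3 HoxC5 libraries, unlike the CCNF site. At FARP1, encoding a guanine nucleotide exchange factor, replicate 1 gave 32.0, replicate 2 7.51 and the overexpressing cells 3.78. SHQ1, an assembly factor of H/ACA ribonucleoproteins, ITPA, PXDN, APOLD1, GMDS, SLC12A7 and TRIQK completed the first 10. Of these 10 sites, 2 lay in a promoter, none had more than 3 CpG and 4 held the AP-1 word.

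Among the 10 strongest sites without Pbx4, 5 lay in a promoter, 8 had 10 or more CpG, 7 held the GC box and none the AP-1 word. The first was at the promoter of SAMD8, a sphingomyelin synthase-related gene, with fold enrichments of 15.1 in replicate 1 and 7.46 in replicate 2, and its nearest Pbx4 peak was 685 bp away. The promoter of SYPL1, a synaptophysin-like membrane protein, followed with 19.7 and 19.5, and that of SEPTIN9, a cytoskeletal GTPase, with 23.05 and 20.9. These promoter sites were strong in both endogenous libraries, and their fold enrichments in the overexpressing cells were 6.03, 6.40 and 5.002. STK17A, DAGLB, STMN3, RAB19, MRGBP, CFAP410 and TTC7B were the other genes, and DAGLB (15.4 in replicate 2) and RAB19 (12.1) had no overexpressed HoxC5 peak.

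Some genes were nearest to several sites with Pbx4. Of 1943 nearest protein-coding genes, 1377 were nearest to a site with Pbx4, 686 to a site without, and 120 to both kinds (8.71% of the first and 17.5% of the second). The most sites with Pbx4 were nearest to NRP1 (10 sites over 232.1 kb, 3 in its promoter) and to the growth regulator MYC (10 sites from 4.66 to 439.2 kb from its TSS), and none of these 20 lacked a Pbx4 peak or an overexpressed HoxC5 peak. KCNMA1, the BK potassium channel, had 8 sites, and RIPK4, a kinase of epithelial differentiation, and ZMIZ1, a transcriptional coactivator, had 7 each, again all with both peaks. Over all sites, 71.3% had a Pbx4 peak and 76.6% an overexpressed HoxC5 peak. The genes were ranked by their number of sites with Pbx4, so the choice itself favours a high Pbx4 share. The median HoxC5 fold enrichment was low at all 5 genes, beside 5.001 over all sites. It was 3.16 at NRP1, 4.55 at MYC, 4.09 at KCNMA1, 4.59 at RIPK4 and 2.99 at ZMIZ1. The cause of these groups of sites was not tested.

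The genes nearest to the most sites without Pbx4 had 3 or 4 such sites each and none with Pbx4. ATXN7L3, a subunit of the SAGA deubiquitinase module, had 3 sites within 1.26 kb of promoter sequence, each 49 to 381 bp from a Pbx4 peak. ZBTB2, a zinc finger repressor, had 3 sites, 2 of them in its promoter. ANKRD30BL (4 sites within 26.6 kb) and the unnamed gene ENSG00000284209 (3 sites within 2.55 kb) were nearest to groups of sites 93.3 to 119.6 kb and 299.5 to 301.8 kb away, with low fold enrichments of 2.004 to 3.37. The nearest Pbx4 peaks were 34905 to 61258 bp and 403178 to 405514 bp from these sites. No filter for regions prone to false peaks was applied here, so these groups may not be HoxC5 binding. LRMDA had 3 sites, 219.2 kb or more from its TSS.

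Replication-dependent histone genes, which encode the core and linker histones made in S phase, stood apart among the promoter sites. The 11 sites at 10 of 66 such genes (15.2%, beside 9.84% of all protein-coding genes) were all promoter sites, and 9 of 11 had a Pbx4 peak, where 40.7% of all promoter sites did. All 11 had an overexpressed HoxC5 peak, which was common at promoters (91.5% of those sites with Pbx4 and 79.2% of those without). Of the 11, 6 were called in both endogenous libraries, compared with 30 of 551 promoter sites and 135 of all 2555 sites, and these 6 held 3 to 9 CpG. The median HoxC5 fold enrichment of the 11 sites was 9.74, against 5.001 over all sites. Promoter sites with an overexpressed HoxC5 peak had medians of 4.68 with Pbx4 and 4.84 without. At H4C5 the HoxC5 fold enrichment was 12.2 in replicate 1, 12.1 in replicate 2 and 13.0 in the overexpressing cells, with a Pbx4 fold enrichment of 5.26. At H2BC4 the values were 10.3, 11.3 and 12.6 with 4.996 for Pbx4, and at H4C8 9.84, 9.76 and 9.60 with 4.77. These 3 sites were alike in all HoxC5 libraries. H4C3, H4C11 and HIST1H4B were the other genes called in both, with 6.36 to 7.12 in replicate 2. The 2 sites without Pbx4, at H1-2 and H3C10, had a Pbx4 peak 37 and 158 bp away. Histone genes have near-identical copies, so reads may not be assigned to 1 copy with certainty.

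Several gene lists had a larger share of genes nearest to a site than the 9.84% of all protein-coding genes. Of 32 integrin, laminin and focal adhesion genes, 12 were nearest to a site (37.5%), and 17 of their 20 sites had a Pbx4 peak, beside 71.3% of all sites. ITGA3, an integrin alpha chain, had 4 sites and the actin crosslinker ACTN1 3, all with Pbx4, while the single sites of ITGB5, PARVA and TNS1 had none. Of 31 TGF-β pathway genes, 11 were nearest to a site (35.5%), and 11 of 16 sites had Pbx4. SMURF2, a ubiquitin ligase of the pathway, had a site in both libraries with HoxC5 fold enrichments of 7.65 and 4.36 and a Pbx4 value of 18.5, and the ligand gene TGFB2 one with 4.24, 6.48 and 15.1. The promoter sites of SKIL, SMAD2 and LTBP3 in the same list had no Pbx4 peak, and that of SMAD3 had one. The counts were not adjusted for the length of the genes or of the sequence around them, which sets how often a gene is nearest.

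AP-1 family genes (5 of 14 nearest to a site, 35.7%) had 3 of 7 sites with Pbx4, where 71.3% of all sites did, but 7 is a small count. Those with Pbx4 were at the ATF3 and FOSL1 promoters and at JUN, and the 4 without were at JUN, JUNB and JUND. JUN thus had sites of both kinds, all of them outside its promoter in genes of other types. No gene of the HOXC cluster (0 of 9) was nearest to a site, but 9 genes are too few to set this apart from the 9.84% of all protein-coding genes. Beside the 71.3% of all sites, YAP and TEAD genes (2 of 15 nearest to a site, 13.3%) had 4 of 5 sites with Pbx4. Epithelial-mesenchymal transition genes (5 of 14, 35.7%) had 5 of 6, prostate luminal and androgen response genes (5 of 15, 33.3%) 5 of 6, and EGF receptor family genes (3 of 12, 25%) 3 of 3. These counts of sites are too small to be set apart from the 71.3%. The promoter of VIM, the intermediate filament vimentin, had a site in both libraries (4.65 and 9.19) without Pbx4, and TMPRSS2, a luminal serine protease, a distal one (6.60 and 5.38) with Pbx4. Cytosolic ribosomal protein genes (6 of 85, 7.06%) were nearest to 10 sites, none in a promoter and 8 with Pbx4, RPLP1 having one in both libraries.

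ZNF genes, which encode zinc finger proteins, were nearest to a site in 27 of 509 cases (5.30%, beside 9.84% of all protein-coding genes). They had 18 sites without Pbx4 and 14 with it, where 71.3% of all sites had Pbx4. Those nearest to ZNF337, without Pbx4, lay 511.4 to 512.6 kb from its TSS with fold enrichments of 2.11 and 2.79. Without a filter for regions prone to false peaks, they may not be HoxC5 binding. Of the 13 promoter sites of ZNF genes, 2 had a Pbx4 peak, where 40.7% of all promoter sites did, but this is a small count. The intronic site nearest to ZNF248 was called in both libraries (7.39 and 6.22) with Pbx4 at 8.66, and the promoter site of ZNF784 (4.27 and 6.30) without.

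The site nearest to TERT, which encodes the telomerase catalytic subunit, had a middling rank by q-value among the sites with Pbx4, but low fold enrichments. It lay 21.3 kb upstream and ranked 948 of 1821. It was called in replicate 1 with a fold enrichment of 4.27 and not in replicate 2, which holds 170 peaks. Of all 2555 sites, 2385 were called in replicate 1 alone. Sites with Pbx4 had a median of 4.97 and a lower quartile of 4.15. In the overexpressing cells it had 3.57, below the lower quartile of that list (4.89). Its Pbx4 value of 6.04 was below the lower quartile of Pbx4 peaks at HoxC5 sites (6.26). The HoxC5 and Pbx4 summits were 52 bp apart, within the quartiles of all pairs. Of 8 telomerase and shelterin genes, 1 (12.5%) was nearest to a site, close to the 9.84% of all protein-coding genes.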

How the data were processed

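HoxC5 was precipitated from unmodified PC-3 cells (2 libraries) and from HoxC5-overexpressing cells (1), and Pbx4 from Pbx4-overexpressing cells (1). Per the labels and methods, the authors mapped single-end reads to hg19 with BWA-MEM, kept well-mapped, non-duplicate reads and called peaks per library with MACS2. The deposited columns used are fold enrichment over background at the summit (a ratio) and the -log10 p-value and q-value. The deposited score column was not used. Read totals are not in the lists, so the depth of a library is unknown here.

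HoxC5 peaks sharing 1 bp were merged, keeping summit, fold enrichment and q-value of the peak with the higher -log10 q. On chromosomes 1-22 and X, 2520 of 2525 and 170 of 170 HoxC5 peaks and 153551 of 153620 Pbx4 peaks remained. A site has a Pbx4 peak if 1 bp is shared (bedtools 2.31.1 gave the same counts, and the overlap code was tested on simulated data). TSSs were those of protein-coding transcripts in GENCODE 44 lifted to GRCh37. Classes were assigned in the order promoter (within 1 kb), exon, intron, gene of another type, intergenic. Words, on both strands, G+C and CpG were counted in 101 bp around summits and, as flank, around a point 1 kb away. Shares have exact (Clopper-Pearson) and differences Newcombe 95% intervals (scipy 1.17.1), for counting error only. Nothing states that the 2 endogenous libraries are separate cultures.

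Named genes are those of the 10 highest-ranked sites of each kind, the 5 genes with the most sites of each kind, list members with a site in both libraries, and TERT; other list members were named after their values were seen. Sequence windows over an annotated UTR, and those of 1 chromosome, were passed over, and some further items are not reported here. The sites and gene lists were chosen with earlier results of these data known. Alternatives were stricter peak limits, other overlap rules, each library alone, and other promoter and word windows.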

Additional observations from a re-analysis of the deposited data

How the results depend on the processing

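With the Pbx4 list limited to 5-fold enrichment or more, 60.9% of the HoxC5 sites had a Pbx4 peak, and limited to a -log10 q of 10 or more, 57.1%. The promoter difference was then -35.1 points under the first limit and the overexpressed HoxC5 difference 29.9 and 30.9 points. With the HoxC5 lists limited to 5-fold or more, the difference in median HoxC5 fold enrichment changed sign to 0.13, so it has no stable direction, and the overexpressed HoxC5 difference was 41.1 points. With HoxC5 peaks of a -log10 q of 5 or more, the promoter difference was -41.9 points and the overexpressed HoxC5 difference 30.9. Requiring 0.5 of the site to be covered gave 34.4 points for the latter. The AP-1 difference was 10.1 points within 25 bp and 28.6 within 100 bp of the summit, as the window sets how many words it can hold.

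With one endogenous library left out, the share of sites with Pbx4 ranged from 71.0% to 81.2%, the promoter difference from -35.5 to -32.3 points, the summit distance from 60 to 68.5 bp, the fold enrichment difference from -1.51 to -0.11, the overexpressed HoxC5 difference from 36.8 to 39.6 points and the AP-1 difference from 9.69 to 18.1 points. Of these, the lists of replicate 2 alone had 138 sites with and 32 without Pbx4.

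After the data were seen, 3 restrictions were added. Outside promoters 79.7% of the sites had Pbx4, and the overexpressed HoxC5 difference was 59.3 points. At no more than 4 CpG the values were 81.5% and 62.4 points, and the promoter difference was -3.98 points, with 110 promoter sites among 1948. Sites in both libraries had Pbx4 at 78.5%.

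Over all 64 alternative values, 40 moved by less than the SD between the 2 libraries, 23 by more and 1 changed sign. For each result that SD comes from the 2 values with 1 library left out, which are themselves among the 64. It also rests on the 170 peaks of replicate 2, so the tally does not measure how robust the results are. No paired analysis was possible because no test was run and Pbx4 has 1 library. Depth, Pbx4 binding in unmodified cells and the cause of the short second list are not known.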
